A study of Homo sapiens with 4 samples.

Results

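The genes of serine synthesis, folate-linked one-carbon transfer and the methionine cycle were examined in a map of H3K27ac, acetylation of lysine 27 of histone H3, which marks active promoters and enhancers. They were PHGDH, PSAT1, PSPH, SHMT1, SHMT2, MTHFD1, MTHFD2, MAT2A, AHCY and MTR, and their regions were all lines of the authors' deposited table that carry one of these names. All 10 genes were found, with 94 of the 91107 distinct regions of the authors' deposited table: 10 regions with a distance of 0 to the gene and 84 elsewhere. Chromatin came from A375, an established human melanoma cell line, in 4 libraries precipitated with an H3K27ac antibody. Both groups were grown for 48 hours in culture, 2 libraries with the solvent isopropanol as vehicle and 2 with 1 mM octanoate, a medium-chain fatty acid. The labels do not say whether libraries of a group came from separate cultures, so p-values measure the spread between these libraries, which may be technical, and a single cell line stands for melanoma here.

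The authors' deposited table compares the 2 groups once and gives, for each region, a mean level over libraries, a log2 fold change with its standard error, and p-values. It holds no value per library, so values in single libraries, depth and the overlap of the groups were not analysed here. Which group is the numerator of the fold change is not stated in its header, and fold changes are therefore called positive or negative rather than higher or lower under octanoate. A region counted as tested when an adjusted p-value had been computed, which was so for 36436 regions, those with mean levels of at least 18.44 in the authors' normalized units, and a call was an adjusted p-value under 0.05. The middle of the distribution was not at 0: tested regions had a median log2 fold change of 0.32, and each value below can be read against that shift. In bulk chromatin, a mark on more cells and more of the mark per cell cannot be told apart. Of 7 melanocyte lineage genes, SOX10, PMEL and MITF had a region at distance 0, with mean levels of 774, 269 and 98.4 in the authors' deposited table, and MLANA, TYR, DCT and TYRP1 had none. Of 8 genes of other cell types, the epithelial genes KRT18 and EPCAM had one, with mean levels of 261 and 50.5 in the authors' deposited table, and CDH1, PTPRC, CD3E, PECAM1, CDH5 and ALB had none. Except for ALB, all the genes without a region at distance 0, of either kind, were listed with regions elsewhere. The nearest of these lay from 0.18 kb away at PECAM1 to 43.2 kb at DCT.

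Serine is made from a glycolytic intermediate in successive steps by PHGDH, PSAT1 and PSPH. SHMT1 in the cytosol and SHMT2 in mitochondria pass a carbon from serine to tetrahydrofolate, and MTHFD1 and MTHFD2 interconvert the folate-bound carbon in the same compartments. MTR uses that carbon to remake methionine from homocysteine, MAT2A turns methionine into S-adenosylmethionine, the methyl donor for DNA and histones, and AHCY clears the S-adenosylhomocysteine that methylation leaves. Several of these genes are known targets of the stress-response factor ATF4, and the pathway is of interest in melanoma because PHGDH is amplified in some tumours.

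The promoters of these genes are shown first, before the values of their regions. RefSeq sequence of build GRCh38.p14 was at hand for 8 genes, all but PSPH and SHMT2, and 250 bases before each start were searched. Every one of these 8 genes had at least 1 RefSeq start inside a tested region. The letters CCAAT, the box bound by the factor NF-Y, were found on either strand in 7 of the 8 genes, AHCY being the exception at each of its RefSeq starts. This pentamer was present in 32.0% of all 35116 promoter windows of that length and in 32.3% of the 16881 windows whose start lay in a tested region. By gene, 37.4% of the 13254 genes with such a window had it. PSAT1 and MTR had 3 copies each, MTHFD2 and SHMT1 had 2, and at least 2 copies were found in 11.5% of windows whose start lay in a tested region. The next lines give the last 120 bases before the start, 5′ to 3′ on the gene's strand, with CCAAT or its reverse complement ATTGG in capitals.
PHGDH, chr1:119711814-119711933, plus strand: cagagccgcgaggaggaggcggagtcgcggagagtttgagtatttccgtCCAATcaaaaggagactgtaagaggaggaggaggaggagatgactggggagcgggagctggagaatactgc
PSAT1, chr9:78297005-78297124, plus strand: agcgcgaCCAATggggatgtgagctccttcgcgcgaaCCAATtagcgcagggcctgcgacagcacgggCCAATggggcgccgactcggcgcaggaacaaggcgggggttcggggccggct
SHMT1, chr17:18363551-18363670, minus strand: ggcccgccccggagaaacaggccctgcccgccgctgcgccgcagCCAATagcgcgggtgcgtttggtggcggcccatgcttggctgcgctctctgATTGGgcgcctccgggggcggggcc
MTHFD2, chr2:74198495-74198614, plus strand: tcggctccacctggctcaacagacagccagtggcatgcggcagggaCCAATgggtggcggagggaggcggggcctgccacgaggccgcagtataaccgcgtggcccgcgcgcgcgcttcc
MAT2A, chr2:85539048-85539167, plus strand: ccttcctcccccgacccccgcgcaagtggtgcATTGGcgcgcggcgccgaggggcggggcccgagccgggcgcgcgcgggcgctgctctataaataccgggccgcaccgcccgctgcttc
MTR, chr1:236795161-236795280, plus strand: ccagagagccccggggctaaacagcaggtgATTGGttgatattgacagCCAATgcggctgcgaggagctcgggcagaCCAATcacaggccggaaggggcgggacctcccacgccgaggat

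Counting back from -1 at the base before the start, the first base of the box lay at -113, -83 and -52 in PSAT1 and at -90 (reverse strand), -72 and -43 in MTR. In PHGDH, MTHFD2 and SHMT1 a forward copy began at -71, -74 and -76, near the MTR copy at -72. How common such positions are in other promoters was not examined. SHMT1 had a reverse copy at -25, MAT2A a reverse copy at -88, MTHFD2 a further forward copy at -184, and MTHFD1 a single one at -216. The E-box CACGTG, which reads the same on both strands and is bound by factors such as MYC and USF, was found in MTHFD1 alone among the 8 genes, at -15, and in 8.27% of windows whose start lay in a tested region. It is shown in capitals in the 26 bases before the MTHFD1 start.
MTHFD1, chr14:64388327-64388352, plus strand: cagtccctaagCACGTGggttgggtt

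None of the 8 genes had TGATGNAA, the amino acid response element of ATF4 with C/EBP factors, or TGACGTCA, the cyclic AMP response element, which 1.55% and 2.62% of windows with a start in a tested region held. These searches describe letters in a short window and not binding. In base composition the 8 windows at the first listed start ran from 51.2% G and C in PHGDH, with 11 CpG, to 71.6% in MAT2A, with 34 CpG, around medians of 65.2% and 21 CpG for windows with a start in a tested region.

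No region of the 10 genes was a call. Of their 94 regions, 43 were tested and 0 passed in the authors' deposited DESeq2 comparison, where 1.67% of all tested regions did, 0.86% of those at distance 0 and 1.97% of the others. An unadjusted p-value under 0.05 was reached by 3 of the 43, all with a positive fold change, against 18.4% of all tested regions in the authors' deposited table. Of these, 2 were listed with PHGDH and 1 with PSAT1. Across the tested regions of the 10 genes the smallest adjusted p in the authors' deposited table, 0.163, was at the RefSeq start of PHGDH. The precision of the comparison sets what could have passed: with standard errors of 0.18 to 0.27 at the 10 regions of distance 0, a log2 fold change of 0.60 to 0.91 would have been needed for a call.

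All 10 genes had exactly 1 region at distance 0, all 10 tested, with mean levels per kb of region, from the authors' deposited table, between 23.8 at PSPH and 44.0 at SHMT2. Their log2 fold changes ran from -0.09 at SHMT1 to 0.53 at PHGDH, with a median of 0.27 beside 0.35 for all 9996 tested regions at distance 0. Of the 10, 9 were positive and 1 negative, beside 98.1% positive among those 9996. The SD over the 10 fold changes was 0.18, less than the median standard error of 0.23, so the order of the genes given next is not resolved by these data. Every one of the 10 95% intervals, taken as 1.96 standard errors either side, included the overall median of 0.32, and 9 of them also included 0. At distance 0, 1 of the 10 regions had an unadjusted p-value under 0.05, against 19.2% of all tested regions at distance 0.

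**Figure D1:**
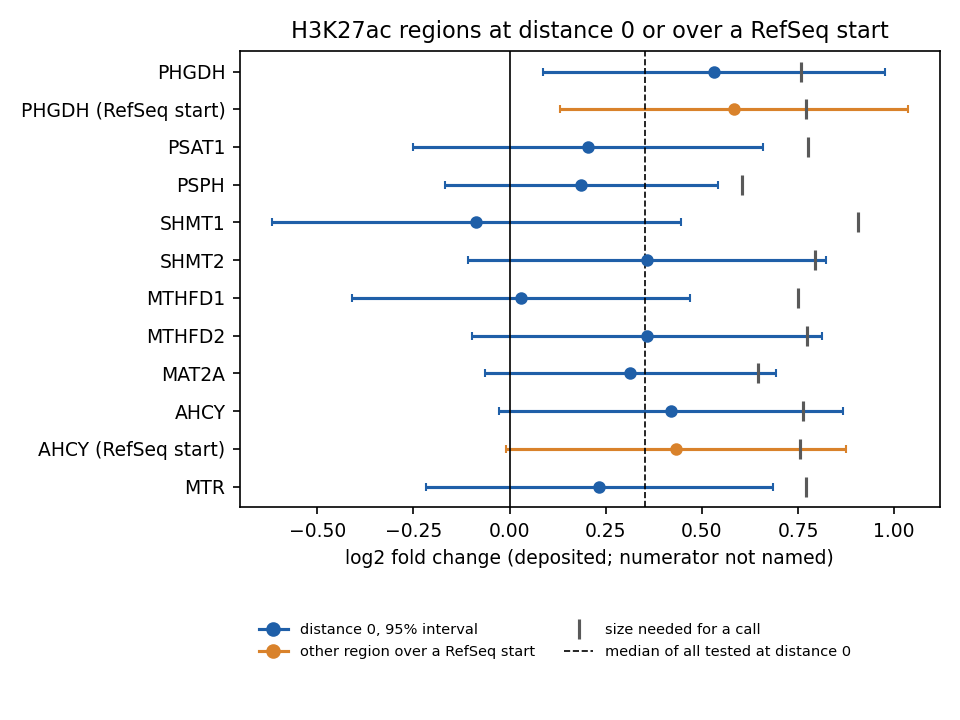
Log2 fold change (x axis, deposited values) of the region at distance 0 of each of the 10 genes (blue points, bars 95% intervals) and of 2 further regions over RefSeq starts of PHGDH and AHCY (orange), with the size each would have needed for a call (grey ticks) and the median of all tested regions at distance 0 (dashed line, 0.35). The blue points run from -0.09 to 0.53 and every one lies left of its tick.

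The serine synthesis genes differed most in where their regions lay. PHGDH, the first and committed enzyme of the route, was listed at distance 0 with a region on chromosome 1 from 119643912 to 119649336 that does not reach the gene. That region overlapped ZNF697, a zinc finger gene listed with it at distance 0 as well, and lay before the RefSeq gene, whose start is at 119711934. Distances of the other PHGDH lines point to position 119648410, which is 63524 bases from the RefSeq start. A second region, from 119711560 to 119716623 and listed at -63150 bases, covered that start and the promoter printed above. Here a negative distance places the gene's point at lower coordinates than the region.

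Both PHGDH regions had fold changes above the overall median. The region over the RefSeq start had a mean level of 142 (28.0 per kb) and a log2 fold change of 0.58 ± 0.23 (standard error) in the authors' deposited table (unadjusted p 0.0113, adjusted p 0.163). For the region shared with ZNF697 the authors' deposited table gave a mean level of 174 (32.0 per kb) and 0.53 ± 0.23 (unadjusted p 0.0191, adjusted p 0.195). The fold changes differed by 0.05, less than either standard error. After subtraction of the overall median they stood at 0.26 and 0.21. The 6 other PHGDH regions had log2 fold changes from -0.39 to 0.16, of which 4 were negative. The most negative tested one, inside the gene (119731765 to 119733347), had -0.39 ± 0.34 at a mean level of 27.1 in the authors' deposited table, whereas the broad region before the gene (119670030 to 119676696) had 0.16 ± 0.22 at 134. Along the locus, the 2 largest fold changes thus lay in the region shared with ZNF697 and in that over the RefSeq start. The others lay between and beyond them, with intervals that overlap, and the differences were not tested.

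**Figure D2:**
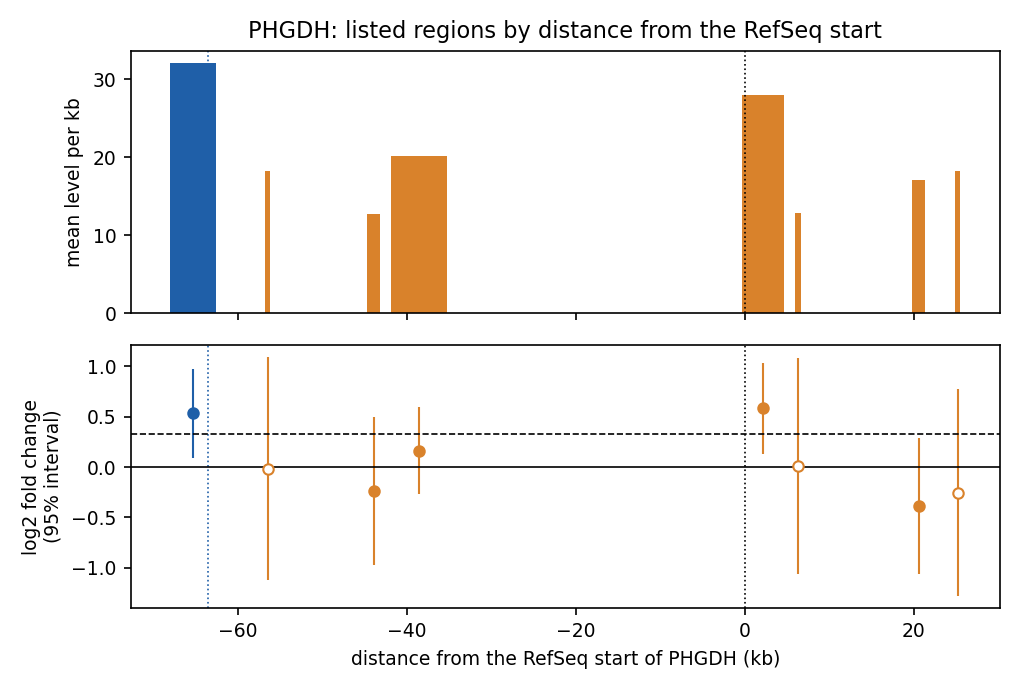
Mean level per kb (upper panel, bars as wide as the regions) and log2 fold change with 95% intervals (lower panel) of the 8 regions listed with PHGDH, by distance in kb from its RefSeq start (black dotted line). Blue marks the region at distance 0 and the point distances were measured from, open points have no adjusted p-value, and the dashed line is the overall median of 0.32. The regions at the 2 dotted lines have the largest fold changes, 0.53 and 0.58.

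PSAT1, the aminotransferase of the second step, had a region over its start (chromosome 9, 78295874 to 78302018) with a mean level of 158 (25.6 per kb) and a log2 fold change of 0.20 ± 0.23 (adjusted p 0.585) in the authors' deposited table. It also had 42 of the 84 regions listed at another distance than 0, in a long stretch on one side of the gene. They ran from 68.8 to 633 kb from the start, none overlapped a protein-coding gene of RefSeq, and the next region beyond them was listed with TLE4. These regions carry the name of PSAT1 by the authors' assignment, and no file used here links them to the gene otherwise.

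Among those 42 distal PSAT1 regions, 22 fold changes were positive and 20 negative, with a median of 0.04 beside 0.24 for all regions over 50 kb from a listed gene. Of the 17 that were tested, 10 were positive, or 58.8% (95% Wilson interval 36.0 to 78.4%), beside 80.0% of the 13138 tested regions over 50 kb away. Neighbouring regions share their locus, and the interval treats them as independent, so it is no test against the 80.0%. The difference from that share was not tested. The broadest was a domain of 21607 bases (78853011 to 78874618), with a mean level of 697 (32.2 per kb, above the 25.6 at the start) and a log2 fold change of 0.29 ± 0.21 in the authors' deposited table. A region of 10208 bases, 508 kb from the start (78805474 to 78815682), had a mean level of 248 (24.3 per kb) and -0.08 ± 0.21 in the authors' deposited table.

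The distal region with an unadjusted p-value under 0.05 (78550412 to 78555990, 253 kb from the start) had 0.52 ± 0.26 at a mean level of 80.0 in the authors' deposited table (unadjusted p 0.0419, adjusted p 0.256). At a mean level of at least 10, the extremes were 0.77 ± 0.41 (78919205 to 78920983, mean level 15.9) and -0.72 ± 0.42 (78777731 to 78779358, mean level 14.5) in the authors' deposited table, both untested. As the plot of fold change by distance shows, tested distal regions up to 261 kb from the start were all positive. From 277 kb onward, negative and positive tested regions were interspersed. An untested region in the nearer part, 196 kb away, had -0.41 ± 0.94. This pattern was seen in the values and was not tested.

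**Figure D3:**
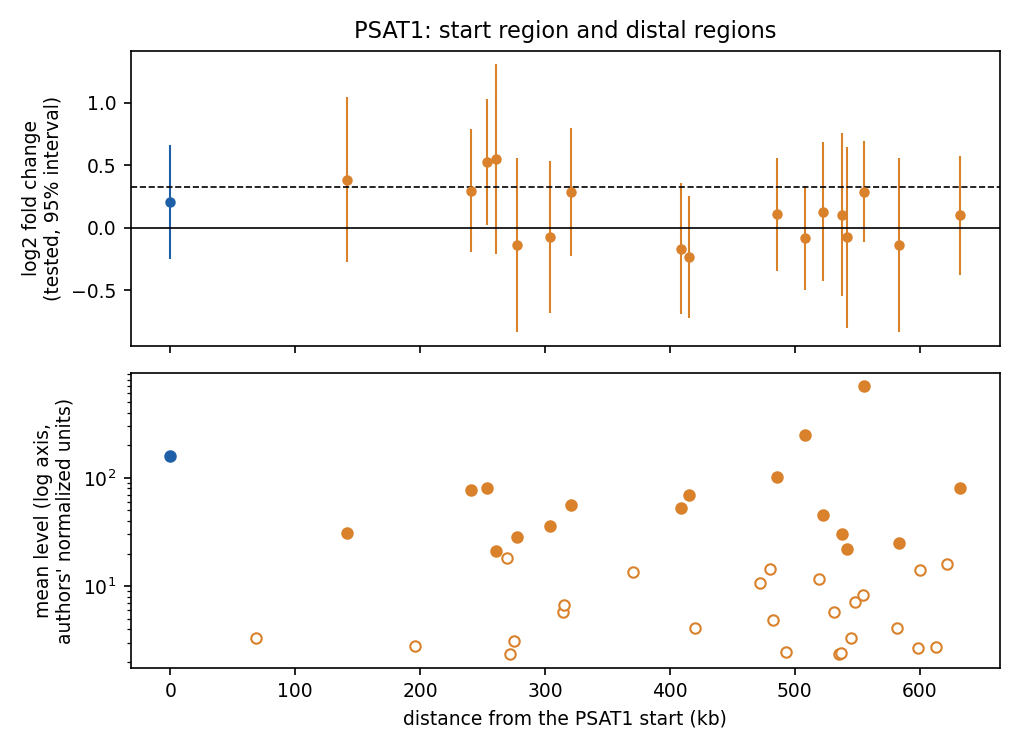
Log2 fold change with 95% intervals of the 18 tested PSAT1 regions (upper panel) and mean level of all 43 on a log axis (lower panel, open points untested), by distance from the start in kb. Blue is the start region and the dashed line the overall median of 0.32. Distal levels, not scaled by length, reach 697 beside 158 at the start, and fold changes lie on both sides of 0.

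PSPH, the phosphatase of the last step, shared its start region with 2 other genes. That region (chromosome 7, 56048956 to 56065935) spanned 16979 bases, broader than 99.3% of regions at distance 0, and was also listed at distance 0 with the chaperonin subunit gene CCT6A and with SUMF2. Its log2 fold change was 0.19 ± 0.18 at a mean level of 405 in the authors' deposited table, or 23.8 per kb, the lowest level per length of the 10 regions at distance 0. The value cannot be assigned to PSPH rather than to its neighbours. Of 3 further regions, 1 within the gene (56031560 to 56035038) had 0.27 ± 0.25, and 1 at 40808 bases from the start (56009279 to 56010797) had -0.09 ± 0.40 in the authors' deposited table.

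The serine hydroxymethyltransferases were each listed with their start region only. SHMT2, the mitochondrial enzyme, had 0.36 ± 0.24 (chromosome 12, 57228850 to 57231909) at a mean level of 135 in the authors' deposited table, which at 44.0 per kb was the densest of the 10 regions at distance 0 and above 98.1% of all regions at distance 0. SHMT1, its cytosolic counterpart, had -0.09 ± 0.27 (chromosome 17, 18361656 to 18364110) at a mean level of 72.1 in the authors' deposited table. Negative fold changes were rare at distance 0, with 191 among the 9996 tested, and 0.700% of those regions lay below SHMT1. Its interval, from -0.62 to 0.45, nonetheless held both 0 and the overall median. The 2 paralogs differed by 0.44, and their intervals overlapped.

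The folate dehydrogenases gave a like pair. MTHFD2, mitochondrial and typically expressed in embryonic and tumour cells, had 0.36 ± 0.23 at its start (chromosome 2, 74198020 to 74204349) at a mean level of 156 in the authors' deposited table. MTHFD1, the cytosolic trifunctional enzyme, had 0.03 ± 0.22 (chromosome 14, 64386394 to 64390848) at a mean level of 113 in the authors' deposited table. The difference of 0.33 was again smaller than the width of either interval. In both enzyme pairs the mitochondrial gene had the larger fold change, in neither pair beyond the errors.

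Away from its start, MTHFD1 had 8 regions, 6 of them positive. The largest, in the gene body (64420243 to 64422051), had 0.65 ± 0.38 at a mean level of 22.3 (adjusted p 0.327) in the authors' deposited table, and it was the largest fold change of the 43 tested regions. Among these 8 regions, the smallest value at a mean level of at least 10 was 0.13 ± 0.35 (64437182 to 64439490) in the authors' deposited table. A region of mean level 71.1 listed with MTHFD1 from 48417 bases away (64336641 to 64339614) lay in ESR2, the gene of estrogen receptor beta, and had 0.40 ± 0.27 in the authors' deposited table. The 4 further MTHFD2 regions lay within 11.2 kb of its start. The only tested one among them (74204954 to 74206760, in the gene) had 0.06 ± 0.34 in the authors' deposited table.

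In the methionine cycle, start regions were all positive, as were 98.1% of all tested regions at distance 0. MAT2A, the synthetase for S-adenosylmethionine outside the liver, had 0.31 ± 0.19 (chromosome 2, 85536862 to 85544871) at a mean level of 341 in the authors' deposited table, or 42.6 per kb, denser than 97.4% of regions at distance 0. The same region overlapped GGCX and was also listed with it, at 16662 bases. AHCY had 0.42 ± 0.23 at its start (chromosome 20, 34311667 to 34317862) with a mean level of 158, and MTR, methionine synthase, 0.23 ± 0.23 (chromosome 1, 236794546 to 236798426) with a mean level of 123 in the authors' deposited table. The authors' adjusted p was 0.348 for MAT2A, 0.298 for AHCY and 0.535 for MTR.

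AHCY held a second promoter-like region inside the gene. From 34299673 to 34304047, listed at 7756 bases, it covered 2 further RefSeq starts, and its mean level of 156 and log2 fold change of 0.43 ± 0.23 in the authors' deposited table nearly equalled those of the first start. Per kb it was denser, at 35.7 against 25.5. The smaller region 1294 bases further on (34305341 to 34306652, mean level 20.8) had -0.53 ± 0.38 in the authors' deposited table, the most negative value of the 43 tested regions. Their difference was 0.96, with intervals from -0.01 to 0.88 and from -1.28 to 0.22 that overlap. Overlap of intervals does not give the error of a difference, and the difference was not tested. Before the gene, a region of mean level 130 (34333509 to 34338191) had 0.22 ± 0.21, while the largest AHCY fold change in the authors' deposited table, 0.66 ± 0.56, came from an untested region of mean level 8.16.

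MAT2A had 9 regions away from its start, all on the side of lower coordinates. The broadest (85497589 to 85507905, 31737 bases from the gene) had a mean level of 249 and a log2 fold change of 0.32 ± 0.22 in the authors' deposited table, beside 0.31 at the start. The next (85510644 to 85513914) had 0.36 ± 0.30 and one of mean level 16.8 (85523819 to 85524988) 0.06 ± 0.45 in the authors' deposited table. MTR had 3, all untested, of which the one above a mean level of 10 lay inside the gene (236853963 to 236854787) with -0.51 ± 0.49 in the authors' deposited table.

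**Figure D4:**
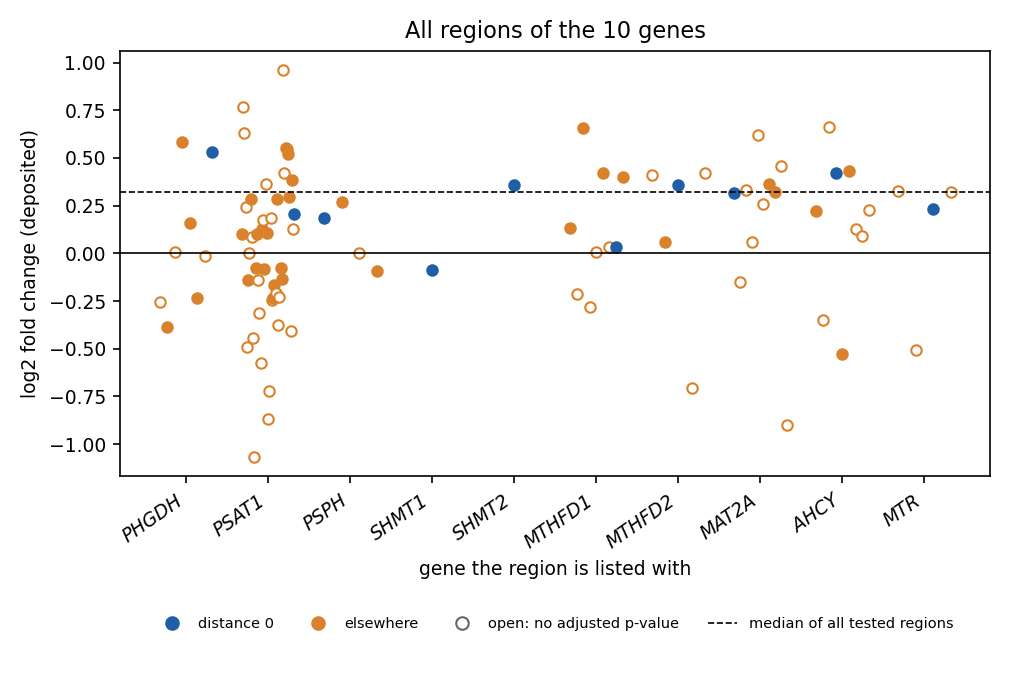
Log2 fold change of all 94 regions by the gene they are listed with (blue, distance 0; orange, elsewhere; open points, no adjusted p-value; dashed line, overall median of 0.32). Within a gene, points are ordered by signed distance. Regions at distance 0 lie between -0.09 and 0.53, and the widest scatter is among open points, where the median standard error is 0.75.

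The 84 regions listed at another distance than 0, of which those over RefSeq starts of PHGDH and AHCY described above are part, had 51 positive and 33 negative fold changes with a median of 0.10, beside 0.25 for all regions listed so. The 51 untested regions, with mean levels of at most 18.1, spread from -1.07 to 0.96 and had a median standard error of 0.75. Among the 33 tested ones, the median was 0.13 and 66.7% were positive, beside 0.31 and 83.2% of the 26440 tested regions not at distance 0. PSAT1 supplied 17 of the 33, and without it the median was 0.24 with 12 of 16 positive. Of all 43 tested regions, 72.1% were positive, and 80.0% of the 25 without PSAT1, beside 87.3% of all tested regions. Regions of a locus are not independent of each other, and the difference in these shares was not tested. For 40 of the 43 the interval held the overall median, and for 3 it lay wholly below, beside 94.3% and 3.13% of all tested regions. By position, the 22 regions inside the gene they are listed with had a median of 0.08 and the 62 outside it 0.10. All 42 distal PSAT1 regions were among the 62, so the groups differ in gene as well as in position.

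**Figure D5:**
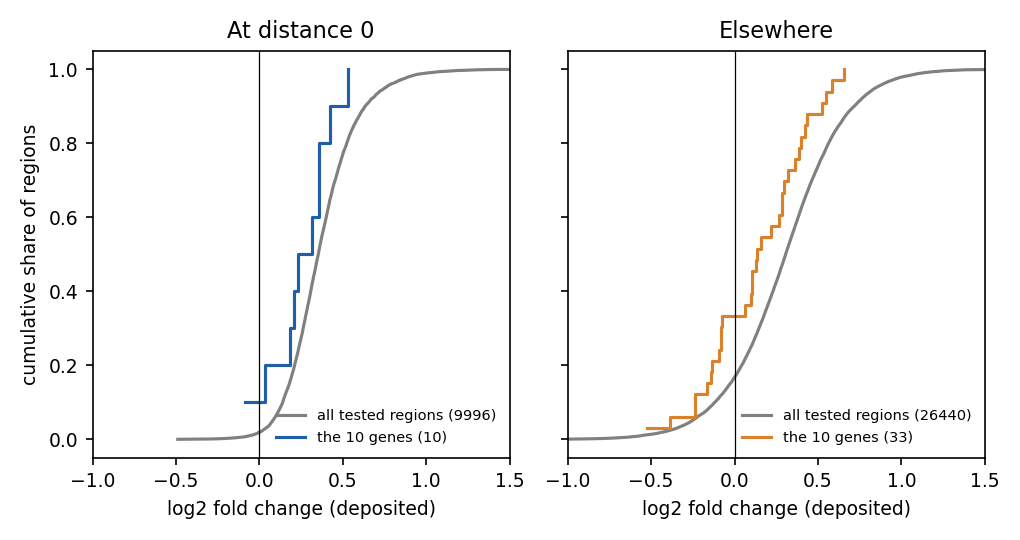
Cumulative share of tested regions by log2 fold change, at distance 0 (left) and elsewhere (right), for the 10 genes (coloured steps, 10 and 33 regions) and all tested regions (grey, 9996 and 26440), with the x axis cut at -1 and 1.5. Over most of the range the coloured steps lie left of the grey curves, with medians of 0.27 beside 0.35 and 0.13 beside 0.31.

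The other genes of these pathways were described from 3 lists of 52 genes, of which 48 were in the authors' deposited table. Serine use and glycine cleavage had 11 listed genes with 36 regions, of which 16 were tested. Fold changes were positive in 15 and negative in 1, beside 87.3% positive among all tested regions. The tested median was 0.47 beside the 0.32 of all tested regions. Of these 16, 2 were calls (background 1.67%), both positive and both inside GLDC, the decarboxylase of the glycine cleavage system. The first (chromosome 9, 6560857 to 6570815) had 0.81 ± 0.20 at a mean level of 328 (adjusted p 0.0104) in the authors' deposited table. The second (6549316 to 6554063) had 0.78 ± 0.23 at a mean level of 90.2 (adjusted p 0.0465) in the authors' deposited table. Their listed distances were 74969 and 91721 bases. Of these 16 regions, 5 had an unadjusted p-value under 0.05 (background 18.4%). Regions at distance 0 of 6 genes of the list ran from 0.11 at SDS to 0.66 at SDSL.

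Folate cycle and transport genes, 19 of them with 79 regions, had 30 tested regions, with a tested median of 0.41. Of the 30, 29 were positive and 1 negative, beside 87.3% positive among all tested regions. The 1 call among the 30 (background 1.67%) was a region inside MTHFD2L, a mitochondrial relative of MTHFD2 (chromosome 4, 74228525 to 74232979), with 1.03 ± 0.25 at a mean level of 67.5 (adjusted p 0.00968) in the authors' deposited table. An unadjusted p-value under 0.05 was reached by 7 of the 30, beside 18.4% of all tested regions. The 14 regions of the list at distance 0 were all positive, as were 97.7% of all regions at distance 0. The largest value, 0.94, was at SLC46A1, a proton-coupled folate transporter, and was not a call. Methionine cycle, salvage and transsulfuration genes, 18 with 132 regions, had 41 tested regions, 38 positive and 3 negative, with a tested median of 0.22, and 0 were calls in the authors' deposited DESeq2 comparison, with 3 of the 41 at an unadjusted p-value under 0.05 beside the same 18.4%. The 14 regions of that list at distance 0 were positive too, from 0.09 at ENOPH1 to 0.47 at SMS, the spermine synthase. None of the 3 calls passed once the overall median had been subtracted, where their log2 fold changes were 0.48, 0.46 and 0.71 and their adjusted p-values, computed here from the authors' deposited standard errors, ran from 0.408 to 0.856.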

How the data were processed

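One table deposited by the authors was used. The submitters' processing notes name Trim Galore, cutadapt, FastQC, Bowtie2, Picard, MACS2, featureCounts, DESeq2, bedtools 2.29.1 and the build hg38, without roles. Per the file headers, the mean level is a signal in normalized units, the fold change and its standard error are log2 values, and the statistic is a score. That score equalled fold change over standard error, and the authors' deposited p-value its two-sided normal p-value, to within 3.38e-14 and 2.89e-15. Adjusted p-values of 1, held by every region below a mean level of 18.44, were read as not computed. Listed distances pointed back to 1 position per gene, to within 1 base, for the 10704 genes set beside RefSeq below. The file headers name only a distance, and the type of that point is not given in the sources used here. Whether the table's coordinates count from 0 or 1 is likewise not given.

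Repeated lines of a region were merged for counts over the whole table. Intervals are 1.96 standard errors. The size needed for a call was the standard error times 3.34, the score at the largest p-value of a call. Centring subtracted the median and used two-sided normal p-values with Benjamini-Hochberg adjustment. Starts and promoter sequence came from RefSeq GRCh38.p14. Exon, intron and UTR annotation was not used here, and 0 columns of single libraries were left out. Python 3.11.15, pandas 2.3.3 and scipy 1.17.1 were used, and the functions were tested on simulated data.

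The tests planned across libraries need values per library and were not run. The members and lists were chosen with earlier results of these data known. All members are named, with a region not at distance 0 named singly where its unadjusted p-value was under 0.05, where it had its gene's most positive or most negative value at a mean level of at least 10, or where it is a call of a list. Regions over a further RefSeq start, the broadest regions, those in another gene, and untested or neighbouring ones at PSPH, PHGDH and AHCY were singled out after their values were seen. A result for a gene of the folate list is not reported here.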

Additional observations from a re-analysis of the deposited data

How the results depend on the processing

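The 94 regions held 0 calls at an adjusted p-value under 0.05 or 0.01, with adjustment over all distinct regions, and after centring, where the smallest adjusted p-value was 0.720. Over the whole table the 608 calls became 128, 250 and 45 under those 3 alternatives, the first 2 being stricter by construction and the third removing a shared positive shift. Centring on 0.32 put 4 of the 10 regions at distance 0 above the median and 6 below it. Signs turned at PSAT1 (-0.12), PSPH (-0.14), MTHFD1 (-0.29), MAT2A (-0.0095) and MTR (-0.091), and SHMT1 stood at -0.41. The second GLDC region was not a call with adjustment over all distinct regions (adjusted p = 0.114). Under the other settings tried, the positive share of 63.8% over the 94 regions became 71.4% to 72.5%. Their median of 0.12 became 0.20 in tested regions, 0.18 at a mean level of at least 10, and 0.16 as the median of the genes' medians. It was 0.19 without PSAT1, a setting chosen after seeing the data, as were the settings for single regions. Away from distance 0, the median of 0.10 became 0.13 at a mean level of at least 10 and 0.15 within 50 kb. No error of these medians was computed. The median at distance 0 was 0.27, and 0.31 over the 11 regions at RefSeq starts, with PSPH and SHMT2 kept at distance 0.

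No paired analysis was possible because values of single libraries were not at hand, and leaving out each library, the replicate block and a fit with edgeR were not run for the same reason. Depth is unknown, and standard errors of 0.18 to 1.10 limit what single regions show.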

Other observations

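The point from which distances were measured was set beside RefSeq starts for 10704 genes of the authors' deposited table. The nearest RefSeq start lay a median of 37 bases away. For 455 genes (4.25%) it was over 10 kb away, and for 152 (1.42%) over 50 kb, PHGDH among them with 63.5 kb. In 75 of those 152 genes, as at PHGDH, a region listed with the gene at a distance other than 0 covered a RefSeq start. For such genes a distance of 0 in the authors' deposited table does not pick out the promoter that RefSeq gives.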
